A study of Mus musculus with 5 samples.

Results

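The genes described here are the 6 genes Dchs1, Fat4, Dzip1, Flna, Tns1 and Lmcd1, which human or mouse genetics ties to mitral valve prolapse, the bulging of thickened valve leaflets into the left atrium. They were chosen by symbol from the 24062 genes of the deposited count table, and all 6 were found there and passed the filter on low counts. The table holds 5 RNA sequencing libraries of mouse mitral leaflets, made to ask how loss of Ift88, a gene of the transport machinery that builds cilia, changes the leaflet transcriptome. By their titles 2 libraries are wild type (WT) and 3 are knockout (KO). The genotype field places NfatC1Cre, a Cre recombinase driven in endocardial cells and their descendants, in both groups, and gives Ift88f/f to WT and Ift88+/+ to KO, so the alleles run against the titles. The titles define the groups used here. The sources used here give neither the age of the mice nor whether leaflets were pooled or each library came from its own animal. The p-values therefore measure the spread among these libraries alone, and that spread may be technical in part. Sex-linked genes, given below, set KO replicate 3 apart from KO replicates 1 and 2.

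Prolapse genetics has pointed to a few parts of the valve cell. Dchs1 and Fat4 are giant cadherins that bind each other across the gap between neighbouring cells and orient tissues as they grow, and families with loss of function of DCHS1 develop prolapse. DZIP1 sits at the base of the primary cilium, an antenna that developing leaflet cells carry. Filamin A, tensin 1 and LMCD1 belong to the cytoskeletal side: filamin A crosslinks actin and its gene causes an X-linked valve dystrophy, tensin 1 ties actin to focal adhesions, and LMCD1 is a LIM domain protein that restrains GATA6. The genes of the last 2 proteins came from association studies of prolapse.

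Levels are given as CPM, the reads of a gene scaled to a common library size by TMM, a method that corrects for differences in RNA composition. Library totals lay between 23361414 and 53789026 reads. Ift88 stood at 7.54 and 19.8 CPM in WT replicates 1 and 2, and at 3.0, 3.92 and 0.409 in KO replicates 1, 2 and 3, so its level went with the titles. The log2 fold change of Ift88 was -2.48 (SE 1.13, edgeR quasi-likelihood test, adjusted p = 0.81). It was -1.62 without WT replicate 2 and -1.12 in the libraries whose titles share the code IR28N. The libraries differed in cell content. The summed level of 10 cardiomyocyte genes was 67500 CPM in WT replicate 1, 99.2 in WT replicate 2 and 26500 to 34200 in KO, with every gene of the list detected. Adipoq and Cidec, markers of fat, had no read in any library. Xist, which is transcribed from the inactive X, stood at 49.1, 11.4, 105 and 93.6 CPM in WT replicates 1 and 2 and KO replicates 1 and 2. It had no read in KO replicate 3, where 4 genes of the Y chromosome stood between 17.6 and 63.2 CPM.

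All 6 genes had a positive fold change of KO against WT, with a median log2 fold change of 1.29. The median was 2.82 without WT replicate 2. For 5 of them, all except Flna, the 3 KO libraries stood above both WT libraries. Over all 14244 genes tested, 49.4% had a positive fold change, the median was -0.01, and the same separation upward was seen in 13.5% and downward in 11.1%. No member passed the edgeR quasi-likelihood test at an adjusted p of 0.05. That test called 0% of all genes, with 832 genes (5.84%) at an unadjusted p under 0.05, among them Dchs1 and Tns1. DESeq2 called 381 genes on the same counts, or 2.41% of those with an adjusted p, and Dchs1 was the member among them. Scaled by library totals, 4 of the 6 members were separated, since Lmcd1 then overlapped, against 15.4% of all genes upward and 7.55% downward.

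**Figure D1:**
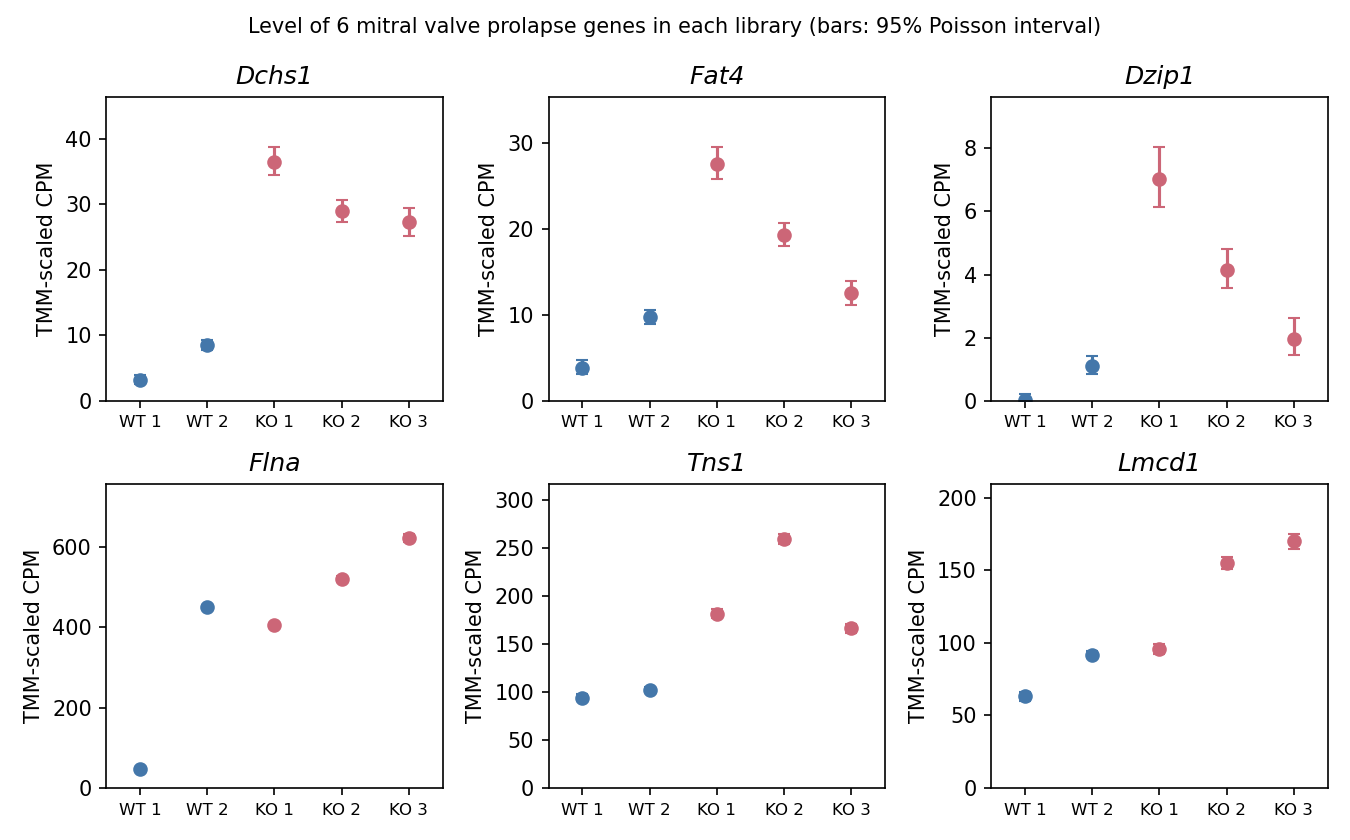
Level of each gene in WT replicates 1 and 2 (blue) and KO replicates 1, 2 and 3 (red), in TMM-scaled CPM on linear axes that start at 0. Points are single libraries and bars are exact Poisson intervals at 95%, which cover counting error only. The KO points lie above both WT points in every panel but that of Flna, where WT replicate 2 at 451 CPM lies above KO replicate 1 at 404.

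Transcript length moved with the groups, and 4 of the 6 genes are very long. The longest annotated transcript is 16.109 kb for Fat4, 10.754 kb for Dchs1, 9.966 kb for Tns1, 8.456 kb for Flna, 4.577 kb for Dzip1 and 1.73 kb for Lmcd1. Over all genes tested the median log2 fold change was -0.44 for the 3139 genes with transcripts under 2 kb, -0.12 from 2 to 4 kb and 0.37 from 4 to 8 kb. It was 1.07 for the 790 genes of 8 kb or more, of which 39.1% were separated upward, against 3.92% of those under 2 kb. Dchs1, at a log2 fold change of 2.40, and Fat4, at 1.53, lay above the median of the longest genes. Flna and Tns1, at 1.05 and 1.04, lay at it, and Lmcd1, at 0.85, lay above the median of the shortest. When each library's trend with length was removed, the median of all genes was -0.114. The members separated upward were then Dchs1, Dzip1 and Lmcd1, 3 of 6 against 9.67% of all genes, while Tns1 was separated downward, as were 11.8% of all genes. The members' median was then 0.61. What lies behind the length trend was not tested.

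**Figure D2:**
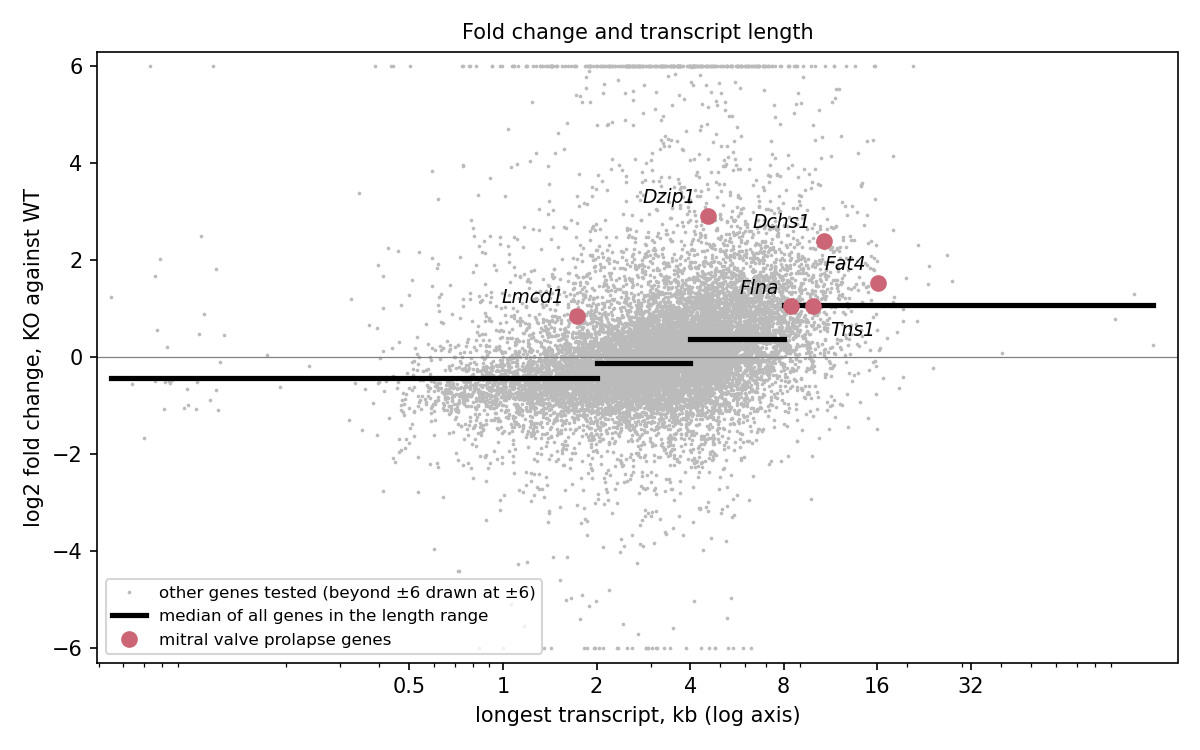
Log2 fold change of KO against WT (vertical axis) against the length of the longest transcript in kb (log axis) for all genes tested, with the 6 genes in red and the median of all genes in each length range as black lines. The medians run from -0.44 under 2 kb to 1.07 at 8 kb or more, and Dchs1, Fat4, Flna and Tns1 lie in the longest range.

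Dchs1, the ligand of the cadherin pair, had the smallest p of the 6 genes. It lies on the minus strand of chromosome 7 (GRCm38, 105752990 to 105787654) and its longest transcript has 21 exons. WT replicate 1 stood at 3.16 CPM (2.52 to 3.92, exact Poisson interval at 95%), and 8.55 (7.81 to 9.33) was the level of WT replicate 2, against 36.5, 28.9 and 27.3 in KO replicates 1, 2 and 3. The KO libraries lay close together, with a ratio of 1.34 between the highest and the lowest, and the lowest of them was far above both WT libraries. Group means were 5.85 ± 3.81 (SD, n = 2) in WT and 30.9 ± 4.92 (SD, n = 3) in KO. The log2 fold change was 2.40 (SE 0.64, unadjusted p = 0.00885 and adjusted p = 0.81 by edgeR), which placed Dchs1 at rank 128 of 14244 genes by p. The authors' deposited table has adjusted p = 0.0291 for Dchs1, and calls 1.43% of the genes to which it gives one. With the length trend removed the log2 fold change was 1.17 (SE 0.60, adjusted p = 0.998), and leaving out WT replicate 1 gave 1.82, and leaving out WT replicate 2 gave 3.29. Exons of Dchs1 share 648 bases with Gm15645, a processed pseudogene on the opposite strand to which the table gives 8 to 63 reads, and the library kit does not mark strand.

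Fat4, which encodes the receptor that binds DCHS1, followed at lower contrast. It lies on the plus strand of chromosome 3 (38886940 to 39011985). The WT libraries held 3.88 and 9.79 CPM, against 27.6, 19.3 and 12.5 in KO replicates 1, 2 and 3. KO replicate 3 came near WT replicate 2, and their Poisson intervals (11.2 to 14 and 9.0 to 10.6) did not meet. The WT mean was 6.84 ± 4.18 (SD, n = 2) and the KO mean 19.8 ± 7.54 (SD, n = 3). Fat4 had a log2 fold change of 1.53 (SE 0.71, adjusted p = 0.81 by edgeR). Leaving out WT replicate 1 gave 0.99, and leaving out WT replicate 2 gave 2.35. Removal of the length trend gave -0.09 (SE 0.66), so the direction of Fat4 rested on whether that trend was kept. In the authors' deposited table Fat4 had adjusted p = 0.508. Annotated antisense transcripts share exonic bases with Fat4, 1209 for C230034O21Rik and 281 for Gm43539.

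Per kb of transcript, Dchs1 was above Fat4 in all 5 libraries, and by more in KO. The ratio of their levels per kb was 1.22 and 1.31 in WT and 1.98, 2.24 and 3.26 in KO, with no overlap between groups. With the length trend removed it was 1.12 and 1.09 in WT and 2.24, 2.67 and 3.31 in KO. The ratio was thus separated in both forms, while the Fat4 level alone was separated in the first. An exact permutation test of 2 against 3 libraries cannot go below p = 0.1, so this difference has no test that could pass. Of 8 interstitial genes, all detected, 5 were separated upward, against 13.5% of all genes. Their summed level was 2610 and 7650 CPM in the WT libraries, against 10600, 10500 and 7270 in the KO libraries. The sum was lowest in WT replicate 1, as for both cadherins. In a bulk sample, fewer cells of a type and less RNA per cell cannot be told apart, and the part of this difference in the Dchs1 and Fat4 values was not tested.

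Among 11 other genes of Fat and Dachsous cadherins and their partners, 8 were tested and 0 passed by edgeR, with 1 at an unadjusted p under 0.05 and 1 called by DESeq2, Fat1 in both cases. A positive fold change was seen in 7 and upward separation in 2, against 49.4% and 13.5% of all genes. The median log2 fold change was 0.64. Fat1, another giant cadherin, stood at 4.99 and 1.01 CPM in the WT libraries, against 19.7, 27.4 and 21.3 in the KO libraries, a log2 fold change of 2.93 (SE 0.87). It was 1.35 with the length trend removed and 4.46 without WT replicate 1. Amotl1, which encodes a junction protein that binds FAT4, stood at 10.8 and 37.2 CPM in the WT libraries, against 84.3, 144 and 38.1 in the KO libraries. Its log2 fold change was 1.89 (SE 0.78), and 0.74 after removal of the length trend, 1.22 without WT replicate 1 and 3.03 without WT replicate 2. Both had adjusted p = 0.81. Fat2 and Fat3 were below the filter, Fat2 with no read at all, so Fat1 and Fat4 were the Fat cadherins with a level to compare. The list's median was 0.41 with the length trend removed and 1.48 without WT replicate 2.

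Dzip1, the ciliary member, was the gene of lowest level and widest spread. It lies on the minus strand of chromosome 14 (118875520 to 118925460). WT replicate 1 had 1 read, 0.0381 CPM (0.000964 to 0.212), and WT replicate 2 had 64 reads, 1.11 CPM (0.854 to 1.42). KO replicates 1, 2 and 3 had 223, 176 and 48 reads, at 7.04, 4.15 and 1.97 CPM. KO replicate 3 lay just above WT replicate 2, with Poisson intervals that did not meet (1.45 to 2.61 in KO replicate 3). The WT mean was 0.574 ± 0.758 (SD, n = 2) and the KO mean 4.39 ± 2.55 (SD, n = 3). Dzip1 had a log2 fold change of 2.91 (SE 1.83, adjusted p = 0.856 by edgeR), with a biological coefficient of variation of 119%. It was 2.66 with the length trend removed and 1.96 without WT replicate 1. Against WT replicate 1 alone the KO to WT ratio was 119, with a 95% counting interval of 21.3 to 4720. The annotated antisense gene Gm49179 shares 2160 exonic bases with Dzip1, and reads of the 2 strands cannot be told apart here. In the authors' deposited table Dzip1 had adjusted p = 0.638.

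Relatives of DZIP1 and proteins of the ciliary base were mixed in direction. Of 14 genes tested, 0 passed by edgeR or by DESeq2 and 0 had an unadjusted edgeR p under 0.05. By direction, 8 had a positive and 6 a negative fold change, and the median was 0.45. The KO libraries were separated upward for 5 and downward for 2, against 13.5% and 11.1% of all genes. Gli3, a transcription factor of hedgehog signalling that is processed at the cilium, stood at 0.114 and 4.49 CPM in the WT libraries, against 10.2, 10.7 and 19.1 in the KO libraries. Its log2 fold change was 2.53 (SE 1.45, adjusted p = 0.841), and 1.67 with the length trend removed and 1.54 without WT replicate 1. It was 6.82 without WT replicate 2, a value that rests on the few reads of WT replicate 1. Cep83, a distal appendage protein that docks the basal body, stood at 6.01 and 8.04 CPM in the WT libraries, against 15.9, 22.2 and 8.27 in the KO libraries, with a log2 fold change of 1.14 (SE 0.70, adjusted p = 0.854). The list's median was 0.25 with the length trend removed.

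Flna, which encodes filamin A, had the most reads of the 6 genes in every library but WT replicate 1, and its WT libraries lay far apart. It lies on the minus strand of the X chromosome (74223461 to 74249820) and its longest transcript has 47 exons. WT replicate 1 stood at 46.7 CPM (44.1 to 49.4), far under WT replicate 2 at 451 (445 to 456), a ratio of 9.65. KO replicates 1, 2 and 3 stood at 404, 520 and 621, so WT replicate 1 was low and WT replicate 2 lay within the KO range. The WT mean was 249 ± 286 (SD, n = 2), and 515 ± 109 (SD, n = 3) was that of KO. The log2 fold change of Flna was 1.05 (SE 0.88, adjusted p = 0.897 by edgeR). Leaving out WT replicate 2 gave 3.46, and leaving out WT replicate 1 gave 0.16. Removal of the length trend gave 0.12. WT replicate 1 was also the library with the lowest sum over 8 endothelial and endocardial genes, at 280 CPM. The sum was 2360 in WT replicate 2 and 1530, 2530 and 1710 in KO. All 8 genes were detected and 3 were separated upward, against 13.5% of all genes. WT replicate 1 also had the highest cardiomyocyte sum, and the genes of that list were highest there except Myh6, Myl7 and Ryr2. Myl2 stood at 8690 and 9.19 CPM in the WT libraries, against 4500, 724 and 512 in the KO libraries. Myl7 stood at 556 and 10.1 CPM in the WT libraries, against 149, 5080 and 6870 in the KO libraries. The part of these differences in the Flna value was not tested. KO replicate 3, the library with the 4 Y-linked genes at 17.6 CPM or more, had the highest Flna level, 621 CPM against 520 in KO replicate 2. With 1 such library, a link to sex was not tested.

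**Figure D3:**
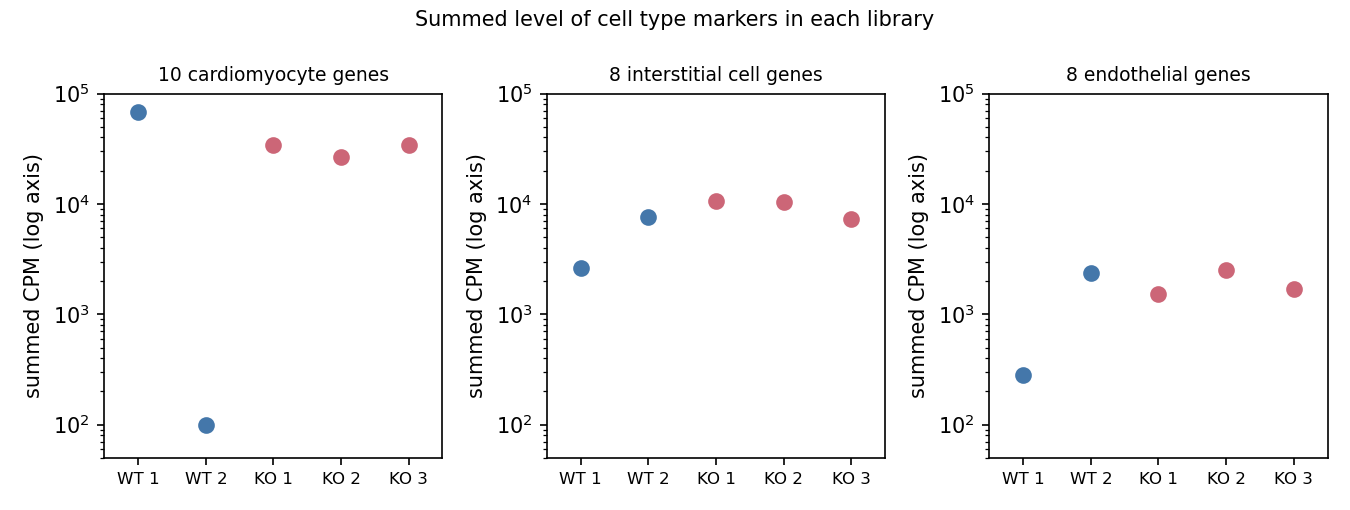
Summed CPM (log axis, the same in each panel) of 10 cardiomyocyte, 8 interstitial and 8 endothelial and endocardial genes in each library, WT in blue and KO in red, with 1 point per library. WT replicate 2 has 99.2 CPM of cardiomyocyte genes, and WT replicate 1 has the lowest interstitial (2610) and endothelial (280) sums.

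Tns1, which encodes the adhesion protein tensin 1, had the most even WT level. It lies on the minus strand of chromosome 1 (73910231 to 74124449). WT replicates 1 and 2 stood at 93.8 and 102 CPM, and KO replicates 1, 2 and 3 at 181, 259 and 166. Each KO library was well above both WT libraries before any adjustment for length. The WT mean was 98.0 ± 5.96 (SD, n = 2) and the KO mean 202 ± 49.8 (SD, n = 3). Tns1 had a log2 fold change of 1.04 (SE 0.35, unadjusted p = 0.0243 and adjusted p = 0.81 by edgeR). Leaving out WT replicate 1 gave 0.95, and leaving out WT replicate 2 gave 1.11. With the length trend removed it was -0.19 (SE 0.28, adjusted p = 0.998), and all 3 KO libraries then lay between 6.99 and 7.08 log2 CPM, below the WT libraries at 7.26 and 7.20. In the authors' deposited table Tns1 had adjusted p = 0.302.

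Lmcd1, the shortest of the 6, had the smallest fold change before the adjustment for length and the third largest of the 6 after it. It lies on the plus strand of chromosome 6 (112273758 to 112330425) with 6 exons. WT replicates 1 and 2 stood at 63.3 and 91.8 CPM and KO replicates 1, 2 and 3 at 95.8, 155 and 170. KO replicate 1 lay next to WT replicate 2, with Poisson intervals that met (92.4 to 99.2 and 89.3 to 94.3). The WT mean was 77.5 ± 20.2 (SD, n = 2) and the KO mean 140 ± 39.2 (SD, n = 3). Lmcd1 had a log2 fold change of 0.85 (SE 0.40, adjusted p = 0.81 by edgeR). It was 1.10 (SE 0.43, unadjusted p = 0.0419, adjusted p = 0.998) with the length trend removed and 0.58 without WT replicate 1. Lmcd1 had adjusted p = 0.649 in the authors' deposited table.

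**Figure D4:**
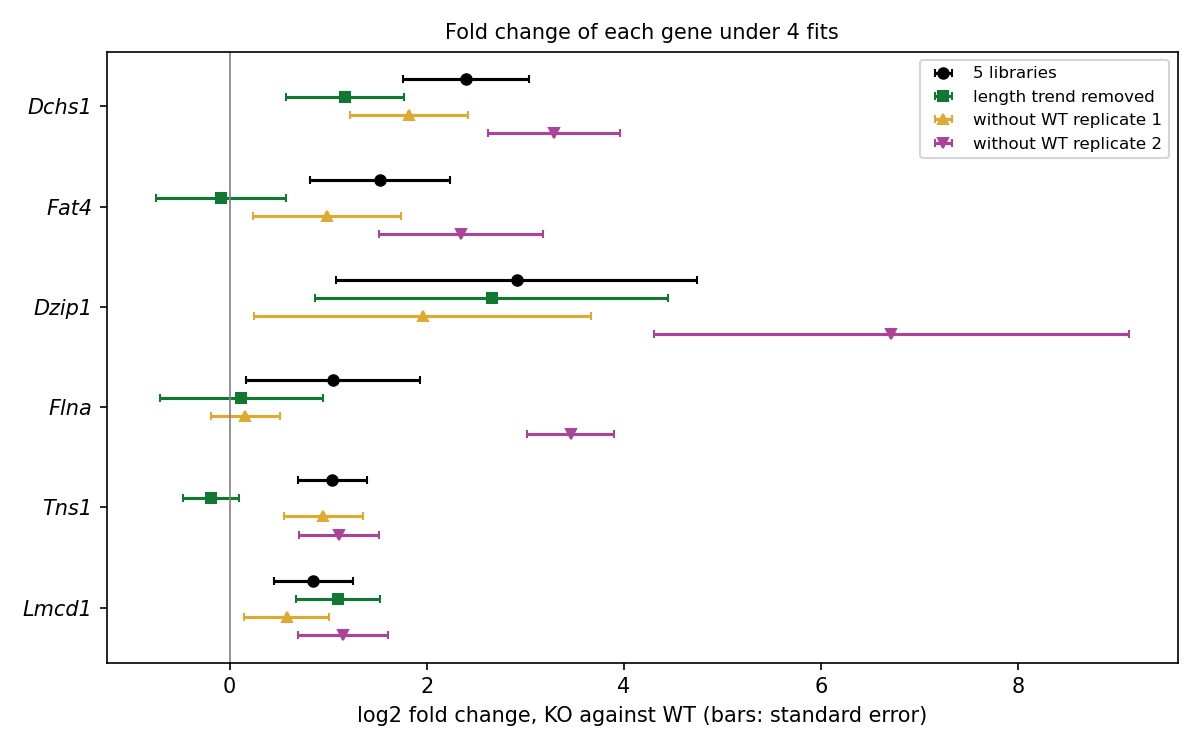
Log2 fold change of KO against WT with its standard error for each gene in 4 edgeR fits: 5 libraries, length trend removed, without WT replicate 1 and without WT replicate 2. With the length trend removed Fat4 and Tns1 lie at -0.09 and -0.19. The value of Dzip1 without WT replicate 2 rests on 1 WT read.

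The upstream sequences of the 3 genes on the cytoskeletal side are shown because these are the members of highest level, and they differ in the motifs they hold. RefSeq windows (GRCm38.p6) matched 5 of the 6 genes. Dchs1 had no entry. Each window ends at a RefSeq start, and that of Flna lies inside the gene span given above, as do some of those of Dzip1. The 250 bases before the start were searched on both strands for the GC box GGGCGG, the TATA box TATAAA, the TEAD core GGAATG, which factors downstream of Fat and Hippo signalling recognise, and the CArG box, which serum response factor recognises. No match overlapped another motif. Capitals mark the GC boxes and the TEAD core of Flna (chrX:74246535-74246784, minus strand), the GC boxes of Tns1 (chr1:74124549-74124798, minus strand) and the CArG box of Lmcd1 (chr6:112273508-112273757, plus strand).
Flna: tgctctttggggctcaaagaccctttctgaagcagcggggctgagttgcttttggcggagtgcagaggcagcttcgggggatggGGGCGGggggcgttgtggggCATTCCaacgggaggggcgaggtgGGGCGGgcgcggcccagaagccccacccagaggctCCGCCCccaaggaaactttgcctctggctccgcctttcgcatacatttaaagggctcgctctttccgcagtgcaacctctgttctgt
Tns1: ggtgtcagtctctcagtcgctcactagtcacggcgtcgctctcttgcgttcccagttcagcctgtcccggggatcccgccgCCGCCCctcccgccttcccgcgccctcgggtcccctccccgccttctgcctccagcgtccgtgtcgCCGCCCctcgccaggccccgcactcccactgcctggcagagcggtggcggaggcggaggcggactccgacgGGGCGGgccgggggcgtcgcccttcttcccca
Lmcd1: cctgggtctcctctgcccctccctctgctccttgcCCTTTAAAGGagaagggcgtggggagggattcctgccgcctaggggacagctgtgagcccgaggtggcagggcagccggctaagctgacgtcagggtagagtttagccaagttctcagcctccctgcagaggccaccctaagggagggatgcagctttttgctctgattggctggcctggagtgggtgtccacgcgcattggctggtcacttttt
Flna and Tns1 each held 3 GC boxes, and at least 1 was found in 32.7% of all 32851 windows. Flna also held 1 TEAD core, found in 12.6%. Lmcd1 held no GC box and 1 CArG box, which begins 215 bases before the start and was found in 1.47% of windows. The window of Fat4 held none of the 4 motifs, and the 3 windows of Dzip1 held 2, 1 and 0 GC boxes. No window of these genes held a TATA box, against 12.4% of all windows. GC content was 74.4% for Tns1, 63.6% for Flna, 61.2% for Lmcd1 and 54.8% for Fat4. A match describes the letters only, since no binding was measured here.

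No filamin or filamin partner passed by edgeR (0 of 14), while Flnc had an unadjusted p under 0.05 and was the 1 call by DESeq2. A positive fold change was seen in 12 and upward separation in 5, against 49.4% and 13.5% of all genes. The median was 0.60. Flnc, the filamin of muscle cells, stood at 24.2 and 39.4 CPM in the WT libraries, against 119, 112 and 88.4 in the KO libraries, with a log2 fold change of 1.74 (SE 0.40, adjusted p = 0.81) and 0.65 with the length trend removed. Mkl1, a coactivator of serum response factor that actin holds back, stood at 2.02 and 5.46 CPM in the WT libraries, against 8.06, 12.5 and 11.3 in the KO libraries. Its log2 fold change was 1.51 (SE 0.84, adjusted p = 0.831), and 0.93 without WT replicate 1 and 2.40 without WT replicate 2. The list's median was 0.39 after removal of the length trend, 0.38 without WT replicate 1 and 0.39 without KO replicate 2. Flnc was lowest in WT replicate 1, the library with the highest cardiomyocyte sum, and next lowest in WT replicate 2, the library with the lowest. The part of cell content in the Flnc value was not tested.

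Tensins and focal adhesion proteins showed the most separation of the lists of partners. A positive fold change was seen in 11 of 13 and upward separation in 8, against 49.4% and 13.5% of all genes. The share of all genes separated upward was 3.92% under 2 kb and 8.89% from 2 to 4 kb. It was 21.7% from 4 to 8 kb and 39.1% at 8 kb or more. The lengths of the genes of this list are not given here. The list's median was 0.94. By edgeR 0 passed, with 4 at an unadjusted p under 0.05, against 5.84% of all genes, and DESeq2 called 0. Tln1 and Vcl encode talin and vinculin, which couple integrins to actin. Tln1 stood at 31.7 and 76.0 CPM in the WT libraries, against 126, 176 and 227 in the KO libraries (log2 fold change 1.71, SE 0.52), and at a fold change of 0.74 with the length trend removed. Vcl stood at 119 and 63.4 CPM in the WT libraries, against 251, 208 and 166 in the KO libraries (log2 fold change 1.19, SE 0.42), with 0.67 under the same adjustment. Both had adjusted p = 0.81. The list's median was 0.40 with the length trend removed and 0.58 without WT replicate 1.

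The list of LMCD1 partners, which holds GATA, calcineurin and NFAT genes and also Tes, stood nearest to the median of all genes. Of 12 tested, 9 had a positive fold change, and 1 was separated upward and 1 downward, against 13.5% and 11.1% of all genes. The median was 0.36. By edgeR 0 passed, with 0 at an unadjusted p under 0.05, and DESeq2 called 0. Nfatc4 stood at 8.91 and 14.6 CPM in the WT libraries, against 15.4, 27.8 and 17.1 in the KO libraries, with a log2 fold change of 0.78 (SE 0.58, adjusted p = 0.883), and 0.43 when WT replicate 1 was left out, 1.18 when WT replicate 2 was, and 0.47 when KO replicate 2 was. Tes, a LIM domain protein of adhesions, stood at 23.4 and 107 CPM in the WT libraries, against 34.1, 40.3 and 19.7 in the KO libraries. Its log2 fold change of -1.05 (SE 0.69, adjusted p = 0.866) turned to 0.42 without WT replicate 2, and was -1.79 without WT replicate 1. The list's median was 0.04 after removal of the length trend, 0.04 when WT replicate 1 was left out, 0.58 when WT replicate 2 was, and 0.03 when KO replicate 2 was.

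Other genes tied to prolapse or to connective tissue syndromes had a median log2 fold change of 1.36. Of 16 tested, 14 were positive and 8 were separated upward, against 49.4% and 13.5% of all genes. By edgeR 0 passed, with 6 at an unadjusted p under 0.05, against 5.84% of all genes, and DESeq2 called 0. Fbn1, the gene of Marfan syndrome, stood at 29.7 and 76.3 CPM in the WT libraries, against 204, 240 and 126 in the KO libraries, with a log2 fold change of 1.84 (SE 0.55). Col5a1, a gene of classical Ehlers-Danlos syndrome, stood at 49.4 and 109 CPM in the WT libraries, against 310, 398 and 175 in the KO libraries, with 1.89 (SE 0.55). Both had adjusted p = 0.81, and with the length trend removed their log2 fold changes were 0.45 and 0.85. Glis1, whose product is a zinc finger factor linked to prolapse by association, was below the filter, at 0.815 CPM in WT replicate 2 and at 0 to 0.0472 in the other libraries. The list's median was 0.47 after removal of the length trend, 0.83 without WT replicate 1 and 2.23 without WT replicate 2.

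**Figure D5:**
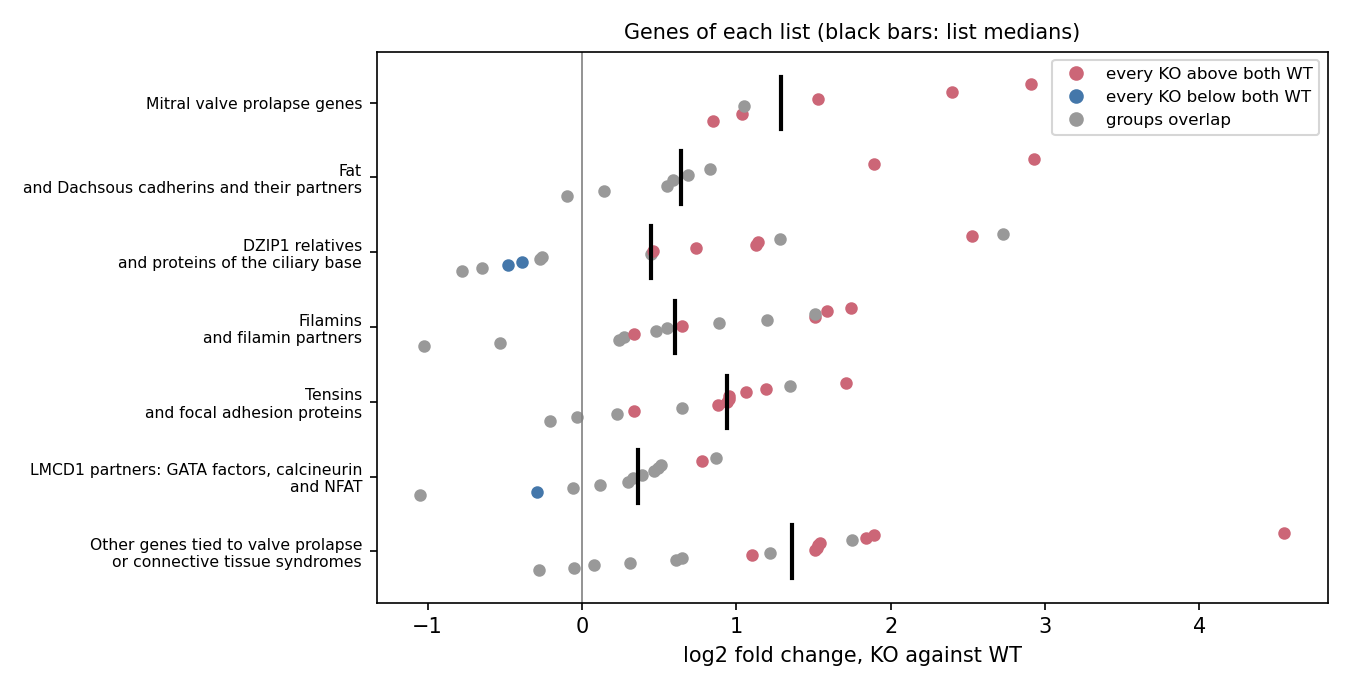
Log2 fold change of KO against WT (horizontal axis) for each tested gene of the 6 prolapse genes and of 6 lists of related genes. Each point is 1 gene, coloured by whether its KO libraries all lie above both WT libraries, all below or overlap, and black bars are list medians. The medians run from 0.36 for the LMCD1 partners to 1.36 for other prolapse and connective tissue genes.

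Levels per kb of the longest transcript placed the 6 genes in 2 tiers. Lmcd1 was at 36.6 and 53.1 CPM per kb in WT and 55.3 to 98.2 in KO, Flna at 5.52 and 53.3 in WT and 47.8 to 73.5 in KO, and Tns1 at 9.41 and 10.3 in WT and 16.6 to 26.0 in KO. The ranges of Lmcd1 and Flna overlapped in both groups, and those of Flna and Tns1 in WT. Dchs1 was at 0.294 and 0.795 in WT and 2.54 to 3.39 in KO, Fat4 at 0.241 and 0.608 in WT and 0.778 to 1.71 in KO, and Dzip1 at 0.00831 and 0.242 in WT and 0.429 to 1.54 in KO. The ranges of Dchs1 and Fat4 overlapped in WT, and those of Fat4 and Dzip1 overlapped in both groups. Lmcd1 was highest in 4 of the 5 libraries, and in 1 when the mean length of all annotated transcripts was used.

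Profiles over the 5 libraries were compared by the root mean square distance between log2 levels, each centred on its own mean. Of the 15 pairs of members, Tns1 and Lmcd1 were closest (0.36 log2 units), followed by Dchs1 and Fat4 (0.52), and Dzip1 and Lmcd1 were farthest apart (1.86). The profiles were not scaled to a common spread, so the size of the differences counts as well as their shape. With the length trend removed, Tns1 was separated downward and Lmcd1 upward. Among 13701 other genes, the nearest to Dchs1 was Loxl2, which encodes a collagen and elastin cross-linking enzyme (distance 0.15), at 7.99 and 25 CPM in the WT libraries, against 112, 85.4 and 63.4 in KO. Robo1, a guidance receptor, and Hmcn1, a matrix protein, followed at 0.20 and 0.22. Fat4 lay nearest to Postn, which encodes the valve matrix protein periostin (0.14), then to Ier5l and Myo10. The nearest to Flna were Ptprm, a receptor phosphatase (0.11), Sele, the endothelial adhesion molecule E-selectin (0.13), and Uggt1 (0.14). Sele stood at 3.31 CPM in WT replicate 1 and at 27.8 to 53.3 in the other 4 libraries. It shares its low library with Flna because it was chosen for its likeness to the Flna profile. Dzip1 lay nearest to Six4 and Pyroxd2, at 0.30 and 0.37. Tns1 lay nearest to Zyg11b, Hnrnpu and Ppp2cb, and Lmcd1 to Rnd3, Dab2 and Larp4b, all at 0.05 to 0.09. These distances describe 5 libraries, which share their length trend and cell content.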

How the data were processed

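RNA of mitral leaflets was extracted on RNeasy columns and amplified with the SMART-Seq v4 kit, per the labels' protocols. The submitters' processing notes name FastQC 0.11.5, cutadapt 1.11, HTSeq, DESeq2 and the builds mm10 and GRCm38. Aligner and annotation: not given in the sources used here. Raw read counts per gene were deposited. Per the file headers, the authors added a mean signal of normalized counts and a KO against WT comparison by log2 fold change, its error, a score (fold change over error) and raw and adjusted p-values.

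Counts were filtered by filterByExpr (14244 genes kept of 17148 with a read) and scaled by TMM. They were compared with edgeR 4.0.16 in R 4.3.3 (quasi-likelihood F test, robust, no covariate, Benjamini-Hochberg adjustment over all genes, threshold 0.05). The procedure was also run on counts simulated from its own fit, which held no length trend and no difference in cell content. A standard error (SE) is the log2 fold change over the root of F. Separated means that the ranges of the groups do not meet. The length trend was a loess fit (span 0.5) of each library's deviation in log2 CPM on the longest GENCODE M21 transcript, entered as an offset. Alternatives used DESeq2 1.42.0, limma-voom 3.58.1, other scalings and filters, and libraries left out. Poisson intervals at 95% and the counting interval cover counting error only, since amplified reads are not independent molecules. Replicate numbers follow the order of deposit and pair nothing.

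The members and lists were chosen with earlier results of these data known, so they are described by counts and medians and not tested as sets. The rule for named genes took the 6 members, Ift88, the 2 genes of smallest p in each related list and the 3 nearest profiles (mean of at least 20 normalized reads). One result that the rule takes is not reported here. Glis1, Fat2, Fat3, Myh6, Myl2, Myl7 and Ryr2 were named after their values were seen.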

Additional observations from a re-analysis of the deposited data

How the results depend on the processing

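Over all genes, DESeq2 called 381 and the edgeR test without WT replicate 1 called 245, while the other fits called 0, so leaving out 1 library gave 0 to 245. Fits without a WT library hold 1 WT library, which is assumed to vary like KO, and contain no spread between WT libraries. Dchs1 passed in DESeq2 (log2 fold change 2.33, adjusted p = 0.0157) and in no other of 13 alternatives. No other member passed in any of them. With the length trend removed Fat4 stood at -0.09 and Tns1 at -0.19, and 3 members were separated upward in place of 5 (this count, unlike the fits, was added after seeing the data). Leaving out 1 library gave 5 or 6 separated members, while the share of all genes separated upward rose to between 16.7% and 32.6%. The log2 fold changes were then 1.82 to 3.29 for Dchs1, 0.99 to 2.35 for Fat4, 1.96 to 6.71 for Dzip1 (the upper value on 1 WT read), 0.16 to 3.46 for Flna, 0.83 to 1.17 for Tns1 and 0.58 to 1.15 for Lmcd1. Tes (-1.79 without WT replicate 1) turned to 0.42 without WT replicate 2 and to 0.67 in the 3 libraries whose titles share a code, where Dchs1 stood at 3.37, Fat4 at 2.59, Flna at 3.31 and Dzip1 at 7.07 (on 1 WT read), and no gene passed. Lmcd1 had the highest level per kb in 1 library by mean transcript length, and in 4 by the longest. Lmcd1 has 1 annotated transcript, so its length was 1730 bases by both measures. The length of Flna went from 8456 bases for the longest to 3242.3 for the mean, and that of Tns1 from 9966 to 2821.6. No paired analysis was possible because replicate numbers follow the order of deposit and only 1 title code, IR28N, occurs in both groups.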

Other observations

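Within families, the balance between members differed from gene to gene. Tns1 was 10.3 to 13.1 times the level of Tns3, another tensin, per kb of transcript in each of the 5 libraries, WT and KO alike. Flna was 2.06 and 12.2 times the level of Flnc in WT and 3.63, 4.97 and 7.51 times in KO, so the WT range enclosed the KO libraries.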
